A study of Mus musculus with 15 samples.

Results

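The genes described here are 10 members of the integrated stress response, the transcriptional programme led by ATF4, in mouse bone marrow-derived macrophages (BMDMs). They were chosen by name from the raw count table, with Ensembl gene identifiers matched to mouse symbols, and they are 10 of the 55385 genes in the table. The choice was made with earlier results of these data known. The members were the transcription factors Atf4, Atf5 and Ddit3, the feedback and metabolic regulators Trib3, Sesn2, Ddit4 and Chac1, and the amino acid synthesis enzymes Asns, Psat1 and Phgdh. All 10 passed the filter on low counts, which kept 13005 genes with more than 1 CPM (a count scaled to a fixed library total) in at least 2 libraries. Ddit4 passed through the groups in which it was high: it was over 1 CPM in 0 of the 2 STAT5fl/fl DMEM libraries and in 1 of the 2 STAT5fl/fl rmGM-CSF libraries.

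The integrated stress response starts when a kinase that senses amino acid shortage, unfolded protein, haem shortage or viral RNA phosphorylates the translation factor eIF2alpha. Most translation then falls, while translation of the ATF4 mRNA rises, and ATF4 pairs with C/EBP proteins to switch on amino acid transporters, amino acid synthesis enzymes and aminoacyl-tRNA synthetases. Growth signals that act through mTORC1 are also known to raise ATF4 without such stress, so the same genes serve cells that are building protein. STAT5 is the transcription factor that the GM-CSF receptor activates in myeloid cells.

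In all, 15 libraries were made from macrophages of 6-week-old BALB/c mice: 2 mice were STAT5fl/fl (floxed Stat5 without Cre, mice 112 and 113) and 3 were STAT5cKO (floxed Stat5 deleted by Cre driven from the Csf1r promoter, mice 114, 115 and 116). The number in each sample title was read as the mouse, which the labels do not say in words, and statements within a mouse rest on that reading. Macrophages of each mouse were given serum-free DMEM, 20 ng/mL recombinant mouse GM-CSF (rmGM-CSF) in DMEM, or 4T1 CM, the serum-free medium conditioned by 4T1 mouse mammary tumour cells, so the 6 groups held 2 or 3 libraries each. Csf1r drives Cre in myeloid cells generally and not in macrophages alone, and the floxed alleles were carried by both genotypes. The 2 STAT5fl/fl mice limit the precision of every comparison that uses that genotype. Total counts per library ran from 16016736 to 22883108, with a median of 21379480, and 3 counts, the limit that a count of 0 allows, came to 0.187 CPM in the smallest library. Values below are normalized CPM, that is, CPM after scaling of the library sizes by relative log expression.

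The labels were first checked against the targeted genes. Stat5a was between 29.0 and 45.1 CPM in the 6 STAT5fl/fl libraries and between 0 and 0.142 CPM in the 9 STAT5cKO libraries, and Stat5b was between 60.9 and 77.8 CPM against 0 to 0.189 CPM. No library went against its label. All 8 macrophage markers examined were detected, with a summed level of 24650 to 29870 CPM in STAT5fl/fl and 31150 to 46650 CPM in STAT5cKO libraries. Markers of granulocytes, dendritic cells, lymphocytes, erythroid cells and mast cells summed to 4.36 CPM or less per list, and 5 fibroblast and stromal markers summed to 5.26 to 14.5 CPM. Lyz2 was the largest part of the macrophage sum, at 17040 to 34470 CPM, while Csf1r was 3825 to 4204 CPM. In the fibroblast and stromal sum Pdgfrb and Col1a2 were the main parts, and Col3a1, Pdgfra and Dcn were each at 0.767 CPM or less. In bulk samples of this kind, fewer cells of a type and less RNA per cell cannot be told apart.

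The promoters of the members were searched for the C/EBP-ATF response element, the site that ATF4 with C/EBP proteins is known to bind, because all 10 members were higher with rmGM-CSF in STAT5fl/fl macrophages. The letters TGATGNAA were searched on both strands, where N is any base, in RefSeq promoters of build GRCm38.p6 that cover 250 bases before to 50 bases after a start of transcription. All 10 members had a promoter in the table, 12 promoters in all, and 3 members held a match, against 3.97% of the 32851 promoters of that length. The matches are shown 5′ to 3′ on the strand of the gene, with the match in capitals.
Asns: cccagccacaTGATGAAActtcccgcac
Chac1: ttccctgccgTTGCATCActcctgccag
Trib3: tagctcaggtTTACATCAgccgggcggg
The Asns window lies on the minus strand at chr6:7693215-7693242 and its match begins at position -23 relative to the start. The Chac1 window lies on the plus strand at chr2:119351039-119351066, with a match in reverse orientation that begins at -193. The Trib3 window lies on the minus strand at chr2:152344029-152344056, and its match, also in reverse orientation, begins at 15, after the start. The STAT motif TTCNNNGAA and the endoplasmic reticulum stress element (CCAAT, then any 9 bases, then CCACG), searched on both strands, were in 0 of the 12 member promoters and in 8.3% and 0.119% of all promoters. A match describes these letters in this window and nothing more, and the absence of letters says nothing about binding elsewhere.

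The members rose with rmGM-CSF. All 10 members were higher with rmGM-CSF than with DMEM in STAT5fl/fl macrophages at an adjusted p under 0.01, where 16.0% of all genes tested were higher, and the median log2 fold change of the members was 1.18. In STAT5cKO macrophages 8 of the 10 were higher at that threshold, where 13.4% of all genes were, and the median was 0.71. The median over all genes was close to 0 in both comparisons, at -0.0061 and -0.0036. Because the members were chosen with earlier results of these data known, these counts describe them and are not independent support. Each member was higher with rmGM-CSF in 5 of 5 mice. The groups did not overlap for all 10 members in STAT5fl/fl and for 9 in STAT5cKO, where the exception was Ddit3; of all genes tested, 71.7% and 48.2% did not overlap. Marker lists moved with rmGM-CSF too. In STAT5fl/fl 5 dendritic cell markers summed to 1.14 to 1.37 CPM with DMEM and 2.31 to 4.36 with rmGM-CSF. In STAT5cKO they summed to 1.43 to 2.003 and 2.86 to 3.68. Of these 5, Flt3, Xcr1 and Siglech were each at 0.683 CPM or less in every library, while Zbtb46 and Ccr7 reached 3.86 and 1.89 CPM. The fibroblast and stromal list went from 7.97 to 8.83 CPM down to 5.26 to 6.48 in STAT5fl/fl and from 13.2 to 14.5 down to 9.46 to 11.1 in STAT5cKO, and the part of either list in the result was not tested. With 4T1 CM the members had no common direction, and their median log2 fold change was -0.063 in STAT5fl/fl and -0.17 in STAT5cKO macrophages.

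**Figure D1:**
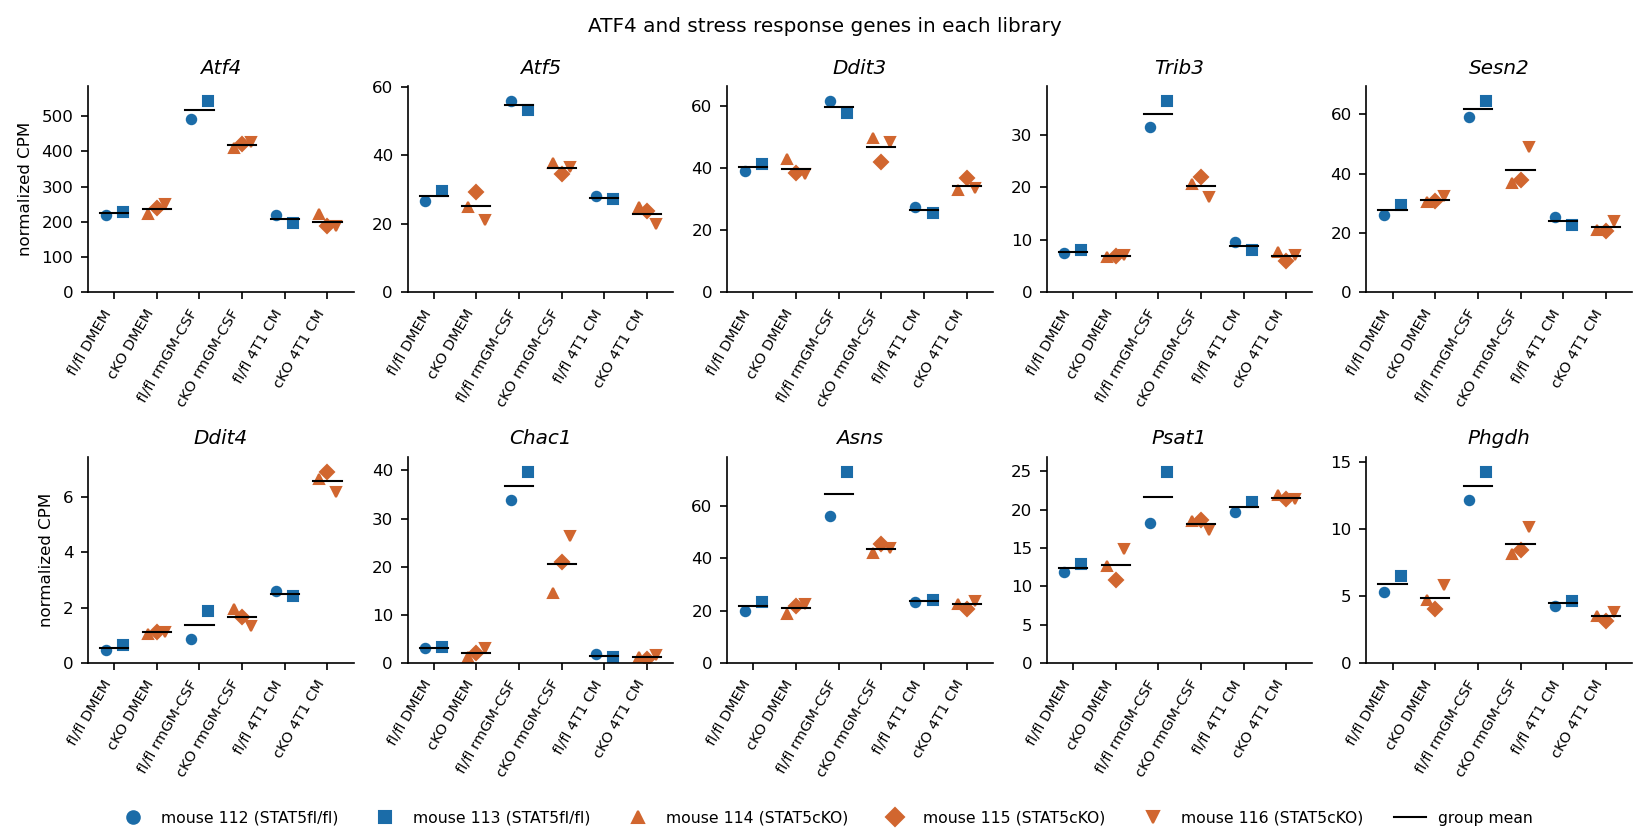
Normalized CPM (linear axes from 0) of the 10 members in the 15 libraries, by group. Each point is 1 library, with 1 symbol per mouse, and bars are group means. Of the members, 8 stand highest with rmGM-CSF in STAT5fl/fl, Psat1 is near 20 CPM with both rmGM-CSF and 4T1 CM, and Ddit4 is highest with 4T1 CM in STAT5cKO (6.16 to 6.90 CPM).

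The transcription factors were measured first. Atf4 (15:80255184-80257541, plus strand, GRCm38) was the member with the highest level per length of exon, at 95.4 normalized CPM per kilobase in STAT5fl/fl DMEM libraries against 0.31 for Ddit4 and 23.4 for Ddit3. In mice 112 and 113 Atf4 was 221 and 229 CPM with DMEM, 491 and 542 with rmGM-CSF, and 220.4 and 198 with 4T1 CM. In mice 114, 115 and 116 it was 222, 239.9 and 249.5 CPM with DMEM, 410.0, 419.9 and 426 with rmGM-CSF, and 223.5, 188 and 188 with 4T1 CM. Every rmGM-CSF library stood above every other library, and the lowest of them was a STAT5cKO library. The log2 fold change with rmGM-CSF was 1.2 ± 0.0887 (SE) in STAT5fl/fl (adjusted p = 8.181e-09) and 0.82 ± 0.0719 in STAT5cKO (adjusted p = 1.035e-07), and the fold within a mouse ran from 1.71 to 2.37. With 4T1 CM Atf4 changed by -0.10 ± 0.0882 in STAT5fl/fl (adjusted p = 0.35) and fell by 0.25 on the log2 scale in STAT5cKO (SE 0.072, adjusted p = 0.0089). That fall is a borderline call, since its adjusted p was 0.0273 in a fit of only the groups compared, 0.0109 without mouse 112, 0.0107 without mouse 113, 0.11 without mouse 115 and 0.16 without mouse 116 (log2 fold change -0.164).

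Atf5 (7:44812256-44816658, minus strand), a relative of ATF4 that is regulated in translation in a similar way, was likewise highest with rmGM-CSF, at lower levels. It was 26.6 and 29.4 CPM with DMEM, 55.7 and 53.3 with rmGM-CSF and 28.1 and 27.1 with 4T1 CM in mice 112 and 113. In mice 114, 115 and 116 it was 24.97, 29.4 and 21.1 CPM with DMEM, 37.8, 34.45 and 36.6 with rmGM-CSF, and 25.04, 23.6 and 20.03 with 4T1 CM. The STAT5cKO libraries with rmGM-CSF lay between the STAT5fl/fl libraries with rmGM-CSF and all the rest. The log2 fold change with rmGM-CSF was 0.96 ± 0.124 in STAT5fl/fl (adjusted p = 8.394e-06) and 0.53 ± 0.102 in STAT5cKO (adjusted p = 0.000672, and 0.011 without mouse 114). With 4T1 CM its changes of -0.02 ± 0.126 and -0.14 ± 0.104 did not pass the test (adjusted p = 0.91 and 0.3).

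Ddit3 (10:127290774-127296288, plus strand) encodes CHOP, which dimerises with C/EBP proteins and promotes cell death in lasting stress. It was 39.1 and 41.2 CPM with DMEM, 61.4 and 57.6 with rmGM-CSF and 27.5 and 25.6 with 4T1 CM in mice 112 and 113. The STAT5cKO mice 114, 115 and 116 had 42.8, 38.2 and 38.1 CPM with DMEM, 49.6, 41.8 and 48.3 with rmGM-CSF, and 32.8, 36.8 and 33.4 with 4T1 CM. The range over the 3 media was thus wider in STAT5fl/fl at both ends. Ddit3 rose with rmGM-CSF by 0.57 ± 0.0938 on the log2 scale in STAT5fl/fl (adjusted p = 0.000117, and 0.0214 without mouse 112), and its change of 0.23 ± 0.0769 in STAT5cKO did not pass (adjusted p = 0.0285). With 4T1 CM Ddit3 fell by 0.60 on the log2 scale in STAT5fl/fl (SE 0.0969, adjusted p = 6.791e-05, and 0.0154 without mouse 113), and its change of -0.21 ± 0.0775 in STAT5cKO did not pass (adjusted p = 0.0333). Of the 1713 exon bases of Ddit3, 105 are shared on the same strand with a second Ddit3 identifier that had 0 counts in every library, and fragments falling in shared bases were left out by the counting.

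Among the feedback and metabolic regulators, Chac1 changed most with rmGM-CSF. Chac1 (2:119351229-119354381, plus strand) encodes an enzyme that degrades glutathione. It was 3.05 and 3.25 CPM with DMEM, 33.9 and 39.7 with rmGM-CSF and 1.75 and 1.29 with 4T1 CM in mice 112 and 113. It was 1.24, 1.96 and 3.13 CPM with DMEM, 14.5, 20.9 and 26.3 with rmGM-CSF, and 1.18, 0.851 and 1.59 with 4T1 CM in mice 114, 115 and 116. The 3 STAT5cKO mice kept their order in DMEM and rmGM-CSF, with mouse 116 highest and mouse 114 lowest. The log2 fold change with rmGM-CSF was 3.54 ± 0.286 in STAT5fl/fl (adjusted p = 2.563e-08) and 3.26 ± 0.249 in STAT5cKO (adjusted p = 1.763e-08), and within a mouse the fold ran from 8.41 to 12.2. The gene was low with 4T1 CM, at 18 to 36 counts a library against 27 to 77 with DMEM. It was lower with 4T1 CM than with DMEM in 5 of 5 mice, by -1.04 ± 0.393 in STAT5fl/fl and -0.81 ± 0.351 in STAT5cKO, and neither passed (adjusted p = 0.0364 and 0.0648). In the fit with the mouse as a block, that is, the paired comparison within mice, both passed (adjusted p = 0.00168 and 0.00589); the STAT5fl/fl change also passed without mouse 114 (0.00829) and without mouse 116 (0.00692).

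Trib3 (2:152337422-152344032, minus strand) is a pseudokinase induced by ATF4 that restrains ATF4 and AKT. It was 7.465 and 8.01 CPM with DMEM, 31.5 and 36.4 with rmGM-CSF and 9.69 and 8.11 with 4T1 CM in mice 112 and 113, and in mice 114, 115 and 116 it was 6.81, 6.92 and 7.13 with DMEM, 20.6, 21.9 and 18.15 with rmGM-CSF, and 7.715, 6.00 and 7.11 with 4T1 CM. Levels with rmGM-CSF formed a separate cluster for each genotype, both above all libraries of the other media. Trib3 rose with rmGM-CSF by 2.13 ± 0.131 on the log2 scale in STAT5fl/fl (adjusted p = 6.947e-10) and by 1.54 ± 0.11 in STAT5cKO (adjusted p = 6.603e-09). With 4T1 CM it changed by 0.20 ± 0.141 and -0.0023 ± 0.118 (adjusted p = 0.253 and 0.989).

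Sesn2 (4:132492032-132510501, minus strand), a leucine sensor that restrains mTORC1, was 26.2 and 29.5 CPM with DMEM, 58.9 and 64.3 with rmGM-CSF and 25.3 and 22.6 with 4T1 CM in mice 112 and 113. In mice 114, 115 and 116 it was 30.3, 30.8 and 32.55 CPM with DMEM, 36.85, 37.7 and 49.0 with rmGM-CSF, and 21.1, 20.6 and 24.1 with 4T1 CM. The STAT5cKO libraries were above the STAT5fl/fl libraries with DMEM and below them with rmGM-CSF, and mouse 116 stood apart from the other STAT5cKO mice with rmGM-CSF. The rise with rmGM-CSF was 1.15 ± 0.122 on the log2 scale in STAT5fl/fl (adjusted p = 9.096e-07) and 0.39 ± 0.0996 in STAT5cKO (adjusted p = 0.00528). The STAT5cKO rise did not pass when any of its mice was left out: it was 0.45 without mouse 114 (adjusted p = 0.0136), 0.45 without mouse 115 (0.0169) and 0.29 without mouse 116 (0.0251). With 4T1 CM Sesn2 fell by 0.51 on the log2 scale in STAT5cKO (SE 0.102, adjusted p = 0.000494), and its change of -0.22 ± 0.126 in STAT5fl/fl did not pass (adjusted p = 0.168).

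Ddit4 (10:59949669-59951834, minus strand), also known as REDD1, restrains mTORC1 in hypoxia and stress. It was the least abundant member with DMEM and with rmGM-CSF, while with 4T1 CM it stood above Chac1 in both genotypes. In mice 112 and 113 it was 0.455 and 0.633 CPM with DMEM, 0.873 and 1.88 with rmGM-CSF and 2.58 and 2.43 with 4T1 CM. The values in mice 114, 115 and 116 were 1.06, 1.13 and 1.11 CPM with DMEM, 1.96, 1.65 and 1.34 with rmGM-CSF, and 6.63, 6.90 and 6.16 with 4T1 CM. Ddit4 was highest with 4T1 CM in each of the 5 mice. Its log2 fold change with 4T1 CM was 2.18 ± 0.324 in STAT5fl/fl (adjusted p = 2.634e-05) and 2.57 ± 0.218 in STAT5cKO (adjusted p = 2.785e-08), and within a mouse the fold ran from 3.84 to 6.26. The rise with rmGM-CSF in STAT5fl/fl, 1.35 ± 0.357 (adjusted p = 0.00602), rested on 10 to 35 counts a library. It did not pass in a fit of only the groups compared (adjusted p = 0.0304), with the mouse as a random block (0.0146), or without any of mice 112 (0.0111), 113 (0.251, log2 fold change 0.93), 114 (0.0118), 115 (0.0139) and 116 (0.0109). The change in STAT5cKO was 0.60 ± 0.249 and did not pass (adjusted p = 0.0755).

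The amino acid synthesis enzymes split. Asns (6:7675169-7693254, minus strand), which makes asparagine and is a classic ATF4 target, was 19.9 and 23.2 CPM with DMEM, 56.0 and 73.0 with rmGM-CSF and 23.3 and 23.9 with 4T1 CM in mice 112 and 113. In mice 114, 115 and 116 it was 18.7, 21.8 and 22.7 CPM with DMEM, 41.9, 45.4 and 43.7 with rmGM-CSF, and 22.6, 20.6 and 23.8 with 4T1 CM. DMEM and 4T1 CM libraries overlapped in STAT5cKO, and every rmGM-CSF library lay above them. Asns rose with rmGM-CSF by 1.58 ± 0.122 on the log2 scale in STAT5fl/fl (adjusted p = 1.367e-08) and by 1.05 ± 0.0998 in STAT5cKO (adjusted p = 2.787e-07). With 4T1 CM it changed by 0.13 ± 0.125 and 0.084 ± 0.102 (adjusted p = 0.418 and 0.525).

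Phgdh (3:98313170-98339990, minus strand) catalyses the first step of serine synthesis from glucose, and Psat1 the next step. Phgdh was 5.33 and 6.50 CPM with DMEM, 12.15 and 14.3 with rmGM-CSF and 4.285 and 4.596 with 4T1 CM in mice 112 and 113, and in mice 114, 115 and 116 it was 4.69, 4.05 and 5.81 with DMEM, 8.15, 8.43 and 10.2 with rmGM-CSF, and 3.502, 3.12 and 3.81 with 4T1 CM. Phgdh was thus high with rmGM-CSF alone. It rose by 1.16 ± 0.172 on the log2 scale in STAT5fl/fl (adjusted p = 3.907e-05) and by 0.87 ± 0.146 in STAT5cKO (adjusted p = 0.000185). With 4T1 CM it was lower than with DMEM in 5 of 5 mice, by -0.41 ± 0.187 and -0.48 ± 0.159, and did not pass (adjusted p = 0.0771 and 0.0188); with the mouse as a block the STAT5cKO change passed (adjusted p = 0.00534).

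Psat1 (19:15904678-15947337, minus strand) was 11.8 and 12.95 CPM with DMEM, 18.3 and 24.96 with rmGM-CSF and 19.7 and 21.0 with 4T1 CM in mice 112 and 113. In mice 114, 115 and 116 it was 12.6, 10.9 and 14.8 CPM with DMEM, 18.55, 18.6 and 17.4 with rmGM-CSF, and 21.9, 21.5 and 21.4 with 4T1 CM. Both treatments thus raised Psat1 above all DMEM libraries. The rise with 4T1 CM was 0.71 ± 0.14 on the log2 scale in STAT5fl/fl (adjusted p = 0.000411) and 0.76 ± 0.113 in STAT5cKO (adjusted p = 2.544e-05). The rise with rmGM-CSF was 0.81 ± 0.14 in STAT5fl/fl (adjusted p = 0.000189, and 0.0224 without mouse 113) and 0.51 ± 0.115 in STAT5cKO (adjusted p = 0.00224, and 0.0314 without mouse 114 and 0.053 without mouse 115). Psat1 and Phgdh, neighbours in the same pathway, therefore differed with 4T1 CM, Psat1 being higher and Phgdh lower than with DMEM in 5 of 5 mice, and the difference between the genes was not tested.

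**Figure D2:**
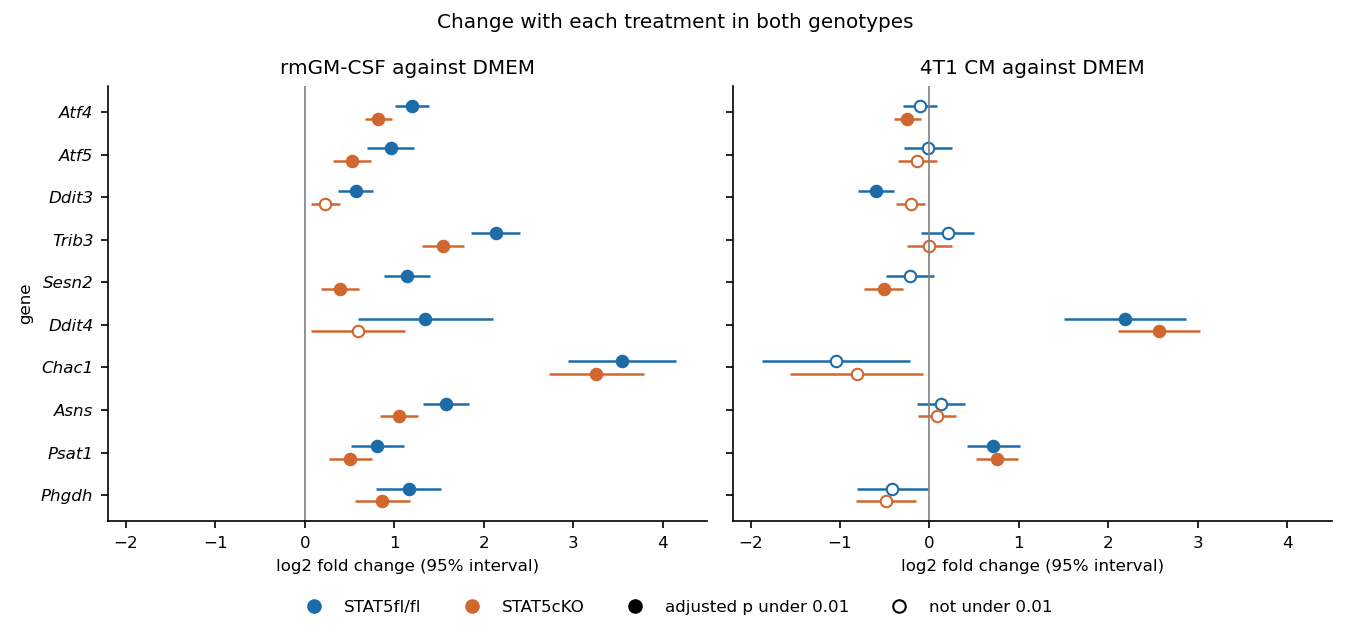
Log2 fold change of each member with rmGM-CSF (left) and 4T1 CM (right) against DMEM, in STAT5fl/fl (blue) and STAT5cKO (orange) macrophages. Bars are 95% intervals of the fit and filled points passed an adjusted p of 0.01. Every point on the left is above 0, while on the right only Ddit4 and Psat1 passed above 0.

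Counted over the members, 2 of 10 (Ddit4 and Psat1) were higher with 4T1 CM than with DMEM at an adjusted p under 0.01 in each genotype, where 19.1% of all genes tested were higher in STAT5fl/fl and 19.0% in STAT5cKO. A single member (Ddit3) was lower in STAT5fl/fl and 2 (Atf4 and Sesn2) were lower in STAT5cKO, where 18.0% and 18.2% of all genes were. These shares are near the background. Against rmGM-CSF, 4T1 CM libraries were lower for 8 of 10 members in each genotype, all but Ddit4 and Psat1, where 17.0% of all genes were lower in STAT5fl/fl and 17.5% in STAT5cKO. Chac1 differed most, at -4.59 ± 0.323 on the log2 scale in STAT5fl/fl (adjusted p = 5.237e-09) and -4.07 ± 0.276 in STAT5cKO (adjusted p = 2.212e-09). Ddit4 was higher with 4T1 CM than with rmGM-CSF in STAT5cKO by 1.97 ± 0.211 (adjusted p = 7.248e-07), where 16.6% of all genes were higher, and its 0.84 ± 0.291 in STAT5fl/fl did not pass (adjusted p = 0.028). The comparisons with DMEM and with rmGM-CSF share the 4T1 CM libraries. For 5 epithelial markers, included because 4T1 cells are of epithelial origin, the sum was 0 to 0.137 CPM with DMEM and 1.23 to 4.34 with 4T1 CM. With rmGM-CSF, to which no 4T1 medium was added, the sum was 1.18 to 1.43 CPM in STAT5fl/fl and 0 to 0.0491 CPM in STAT5cKO. Nearly all of the higher sums was Cdh1, since Epcam, Krt8, Krt18 and Krt14 were at 0.189 CPM or less in every library. The part of this list in the results with 4T1 CM was not tested.

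The genotypes were then compared within each medium. With DMEM 0 of 10 members passed an adjusted p of 0.01 in edgeR's quasi-likelihood test, and 2.35% of all genes did. In that test 1 member, Ddit4, was under an unadjusted p of 0.05, as were 2759 of the 13005 genes tested. DESeq2 also called 0 members. The members' 95% intervals with DMEM allowed differences of, for example, -0.094 to 0.246 for Atf4 and -0.276 to 0.206 for Asns on the log2 scale. Ddit4 was higher in STAT5cKO by 1.003 ± 0.33 with DMEM (adjusted p = 0.0813), from 10 to 27 counts a library.

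With rmGM-CSF, members were lower in STAT5cKO macrophages. The estimate was lower for 9 of the 10, with a median log2 difference of -0.57, and 5 passed, where 6.16% of all genes tested were lower. They were Trib3, Atf5, Sesn2, Asns and Ddit3. The difference was -0.74 ± 0.109 for Trib3 (adjusted p = 0.000112), -0.59 ± 0.111 for Atf5 (0.00113), -0.59 ± 0.108 for Sesn2 (0.000943), -0.56 ± 0.106 for Asns (0.00106) and -0.35 ± 0.085 for Ddit3 (0.00744). Atf4 itself, at -0.30 ± 0.0792, Chac1, at -0.85 ± 0.215, and Phgdh, at -0.58 ± 0.152, lay just outside the threshold (adjusted p = 0.0129, 0.0107 and 0.014). Both genotypes' libraries did not overlap for 8 of the 10 members, all but Ddit4 and Psat1, and did not overlap for 49.0% of all genes. The summed level of the 8 macrophage markers moved with genotype in the same libraries (25820 to 27280 CPM in STAT5fl/fl and 34910 to 37990 in STAT5cKO with rmGM-CSF), as did the fibroblast and stromal list (5.26 to 6.48 against 9.46 to 11.1 CPM), and their part in the result was not tested. The first sum was mostly Lyz2 and the second mostly Pdgfrb and Col1a2. Both sums also differed with DMEM, at 24650 to 25050 against 31150 to 36860 CPM and 7.97 to 8.83 against 13.2 to 14.5 CPM.

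The count with rmGM-CSF leaned on the 2 STAT5fl/fl mice. Without mouse 113 it was 1, since Atf5, Ddit3, Sesn2 and Asns did not pass (adjusted p = 0.0203, 0.0435, 0.0351 and 0.0718, the last with a log2 difference of -0.358), and without mouse 112 it was 3, since Atf5 and Ddit3 did not (0.0274 and 0.0967). Ddit3 also did not pass without mouse 115 (0.0374) or mouse 116 (0.0175), while Chac1 and Phgdh passed without mouse 116 (0.000771 and 0.00665). Trib3 was the member that passed each time 1 mouse was left out. The count was 8 in a fit of only the groups compared and 8 with no filter on low counts, as Atf4, Chac1 and Phgdh then passed. DESeq2 called 6, as Atf4 passed there (adjusted p = 0.00255). With the mouse as a random block in limma, Chac1 and Phgdh passed (adjusted p = 0.000754 and 0.00489).

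With 4T1 CM, 2 members were higher in STAT5cKO, where 4.01% of all genes were. Ddit4 differed by 1.39 ± 0.228 on the log2 scale (adjusted p = 0.000534), with the 3 STAT5cKO libraries at 6.16 to 6.90 CPM and the 2 STAT5fl/fl libraries at 2.43 and 2.58. Ddit3 differed by 0.37 ± 0.0899 (adjusted p = 0.00997), and this call sat at the threshold: the adjusted p was 0.0102 with another filter on low counts (filterByExpr), 0.0544 in a fit of only the groups compared, 0.0138 with the mouse as a random block, and 0.0416, 0.145, 0.0283 and 0.0223 without mice 112, 113, 115 and 116. The other 8 members did not pass, with log2 differences from -0.36 for Trib3 to 0.086 for Psat1.

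**Figure D3:**
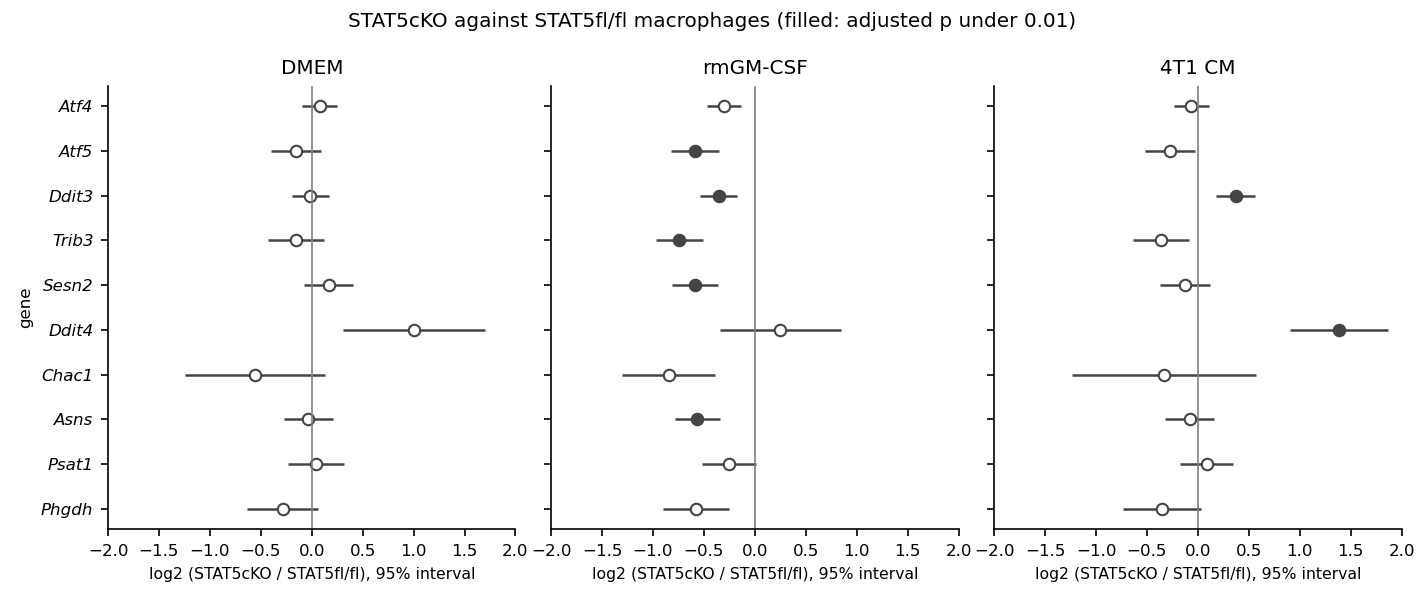
Log2 difference between STAT5cKO and STAT5fl/fl macrophages for each member within DMEM, rmGM-CSF and 4T1 CM. Bars are 95% intervals of the fit and filled points passed an adjusted p of 0.01. With rmGM-CSF 9 of 10 points are below 0 and 5 passed, with DMEM 0 passed, and with 4T1 CM Ddit3 and Ddit4 passed above 0.

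Whether the response itself differed between genotypes was tested by interaction terms. For rmGM-CSF against DMEM all 10 estimates were negative, that is, the rise was smaller in STAT5cKO, with a median of -0.41, and 1 of 10 passed, where 2.28% of all genes tested were lower. That member was Sesn2, at -0.75 ± 0.157 (adjusted p = 0.00638), and it did not pass without mouse 112 (0.0846), 113 (0.0795), 114 (0.03) or 115 (0.0347). For Trib3, Asns and Atf4 the interaction was -0.59 ± 0.17, -0.53 ± 0.156 and -0.38 ± 0.113 (adjusted p = 0.0589, 0.0648 and 0.068). For Chac1, which had the largest rise, it was -0.29 with a 95% interval from -1.12 to 0.545. For 4T1 CM against DMEM 0 of 10 members passed in edgeR and 1.31% of all genes did. In edgeR 1 member, Ddit3, was under an unadjusted p of 0.05, as were 1864 of the 13005 genes tested. DESeq2 called 0 members. For 4T1 CM against rmGM-CSF all 10 estimates were positive and 1 passed, where 1.28% of all genes were higher: Ddit3, at 0.72 (adjusted p = 0.00215), which did not pass without mouse 112 (0.0484), 113 (0.0593) or 115 (0.0154). These interactions share libraries with each other and with the comparisons above.

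Over the 15 libraries Trib3 and Asns had the highest correlation of log2 CPM between members (Pearson's r = 0.984), followed by Atf4 and Chac1 (0.976), while Ddit4 correlated with Phgdh at -0.481 and with Psat1 at 0.744. The genes outside the members whose pattern was closest to Atf4 were Spi1 (r = 0.989), which encodes the myeloid transcription factor PU.1, Nfe2l1 (0.985), Trip10 (0.983), the isoleucyl-tRNA synthetase gene Iars (0.981) and Wtap (0.978). Those closest to Asns were Mthfd2 (0.984), which encodes a mitochondrial enzyme of folate metabolism, Sept11 (0.981), the interferon-induced Gbp2 (0.981) and Gbp2b (0.98), and the NF-kappaB subunit gene Rel (0.977). These values describe 15 libraries that share treatment, genotype and mouse.

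Other genes of the pathway were read from lists of 92 genes, of which 80 passed the filter. Like the members, the lists were chosen with earlier results of these data known, so their counts are descriptive. With rmGM-CSF 41 were higher and 7 lower in STAT5fl/fl, where 16.0% of all genes were higher and 12.7% lower, and 29 and 7 in STAT5cKO, where 13.4% and 10% were. Of 8 amino acid transporters tested, 6 rose in STAT5fl/fl and 4 in STAT5cKO, against the same 16.0% and 13.4%. Slc7a5, the light chain of the large neutral amino acid transporter LAT1, went from 7.60 to 7.80 CPM with DMEM to 29.7 to 39.2 with rmGM-CSF in STAT5fl/fl (log2 fold change 2.16 ± 0.141, adjusted p = 1.6e-09) and rose by 1.6 ± 0.119 in STAT5cKO. Slc1a4, a neutral amino acid transporter, rose by 1.80 ± 0.263, the cationic amino acid transporter Slc7a1 by 1.68 ± 0.118 and the cystine transporter Slc7a11 by 1.43 ± 0.205 in STAT5fl/fl. With 4T1 CM 3 transporters rose and 1 fell in STAT5fl/fl, against 19.1% and 18.0% of all genes. Slc7a11 rose more than with rmGM-CSF, by 2.22 ± 0.201 (difference between the media 0.79 ± 0.189, adjusted p = 0.0026), and Slc38a2, which carries small neutral amino acids, changed by -1.7 ± 0.113. The promoter of Slc7a11 held the C/EBP-ATF response element in both orientations and also the STAT motif, with its first base at -183. Of the 6 transporters with a promoter, 2 held the C/EBP-ATF response element (Slc7a11 and Slc1a4) and 2 the STAT motif (Slc7a11 and Slc7a1). These 6 genes had 9 promoters, and the motifs were in 3.97% and 8.3% of all promoters.

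Of 20 cytosolic aminoacyl-tRNA synthetases, 13 rose with rmGM-CSF in STAT5fl/fl and 11 in STAT5cKO, with none lower, where 16.0% and 13.4% of all genes rose. Cars rose most, from a mean of 48.0 CPM with DMEM to 97.4 with rmGM-CSF in STAT5fl/fl (1.02 ± 0.0756, adjusted p = 8.5e-09) and by 0.61 ± 0.0621 in STAT5cKO, and Yars, Aars and Tars rose by 0.97, 0.74 and 0.73 in STAT5fl/fl. With 4T1 CM 1 synthetase rose (Rars) and 1 fell (Sars) in STAT5fl/fl, where 19.1% of all genes rose and 18.0% fell. In STAT5cKO 1 rose and 3 fell with 4T1 CM, where 19.0% and 18.2% of all genes did. Of the 13 synthetases with a RefSeq promoter, 5 held the C/EBP-ATF response element, against 3.97% of all promoters, and those of Tars and Yars are shown as examples.
Tars: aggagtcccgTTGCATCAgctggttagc
Yars: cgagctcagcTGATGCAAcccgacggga
The Tars window lies on the minus strand at chr15:11399656-11399683 and the Yars window on the plus strand at chr4:129189896-129189923. Among 8 other amino acid and folate enzymes tested, 3 rose and 1 fell with rmGM-CSF in STAT5fl/fl, with a median log2 fold change of 0.0048, and 1 rose and 1 fell in STAT5cKO. Of all genes, 16.0% rose and 12.7% fell in STAT5fl/fl, and 13.4% and 10% in STAT5cKO. Got1, an aspartate aminotransferase, changed by -0.80 in STAT5fl/fl and -0.47 in STAT5cKO. Mthfd2 rose most, at 17.7 to 22.9 CPM with DMEM and 71.0 to 82.1 with rmGM-CSF in STAT5fl/fl (1.91 ± 0.137, adjusted p = 5.1e-09), and its log2 difference between STAT5cKO and STAT5fl/fl with rmGM-CSF was -0.61 (adjusted p = 0.0012).

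The partners and other stress targets of ATF4 went several ways. Nupr1, a stress-induced chromatin protein, rose with rmGM-CSF by 2.99 ± 0.241 in STAT5fl/fl and 2.0 ± 0.185 in STAT5cKO. Cebpb and Jdp2, which encode dimer partners of the family, rose with both treatments, and the log2 fold change of Cebpb in STAT5fl/fl was 2.05 for rmGM-CSF and 2.68 for 4T1 CM. Atf3, itself a known target of ATF4, was high without treatment, at 413 and 450.0 CPM in STAT5fl/fl with DMEM, and fell with 4T1 CM to 102 to 103 CPM (-2.08 ± 0.087, adjusted p = 4.1e-12). With rmGM-CSF Atf3 changed by -0.21 ± 0.0827 in STAT5fl/fl, which did not pass (adjusted p = 0.0577), and by -0.85 ± 0.0684 in STAT5cKO (adjusted p = 3.2e-08), and the interaction was -0.65 ± 0.107 (adjusted p = 0.00096). The regulators of eIF2alpha did not move one way. With rmGM-CSF 4 of 14 rose and 4 fell in STAT5fl/fl, where 16.0% of all genes rose and 12.7% fell. Eif2s1, which encodes eIF2alpha, was up by 0.92 ± 0.0776. Impact, whose product holds the eIF2alpha kinase GCN2 in check, changed by -0.78, and the kinase genes Eif2ak3, Eif2ak4 and Eif2ak1 by -0.73, -0.37 and -0.30. The kinase gene Eif2ak2 went the other way in STAT5fl/fl, from 85.4 to 86.4 CPM with DMEM to 107.3 to 118.6 with rmGM-CSF. Ppp1r15a, which encodes the stress-induced subunit of the phosphatase for eIF2alpha, rose by 0.61 in STAT5fl/fl after rmGM-CSF and changed by -0.90 after 4T1 CM.

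The XBP1 and ATF6 arm of the unfolded protein response answers to unfolded protein in the endoplasmic reticulum rather than to amino acid supply. At an adjusted p under 0.01, 9 of its 18 genes were higher with 4T1 CM than with rmGM-CSF in STAT5fl/fl and 1 was lower (median log2 difference 0.24). In STAT5cKO 11 were higher and 1 lower (median 0.24). Of all genes, 14% were higher in STAT5fl/fl and 16.6% in STAT5cKO. Against DMEM, 9 were higher and none lower with rmGM-CSF in STAT5fl/fl (median log2 fold change 0.24), where 16.0% of all genes were higher, and 14 were higher and 2 lower with 4T1 CM (median 0.55), where 19.1% were higher and 18.0% lower. In STAT5cKO the counts were 4 and 0 with rmGM-CSF, where 13.4% of all genes were higher, and 13 and 1 with 4T1 CM, where 19.0% were higher and 18.2% lower. The list already differed between genotypes with DMEM. There 7 genes were higher and 0 lower in STAT5cKO (median log2 difference 0.28), where 0.923% of all genes were higher. Creld2 and Manf, both induced by such stress, rose with 4T1 CM by 1.45 ± 0.101 and 1.42 ± 0.0788 in STAT5fl/fl, and Hspa5, the chaperone BiP, by 0.79 ± 0.0674. Herpud1 was the gene of the list that passed as lower with 4T1 CM than with rmGM-CSF in both genotypes. The estimate was lower for 4 of the 18 genes in STAT5fl/fl and for 5 in STAT5cKO. In STAT5fl/fl Herpud1 was at 47.0 to 48.7 CPM with DMEM, 169 to 183 with rmGM-CSF and 68.6 to 73.0 with 4T1 CM. Its promoter held the C/EBP-ATF response element. Of the 15 genes of this list with a promoter, 6 held the endoplasmic reticulum stress element, against 0.119% of all promoters. The element is shown for the pair of those genes named here.
Hspa5: ttcaCCAATCGGAGGCCTCCACGacggg
Creld2: ttctCGTGGCGAGCCTCAATTGGtccac
The Hspa5 window lies on the plus strand at chr2:34772021-34772048 and the Creld2 window, with its match in reverse orientation, on the plus strand at chr15:88819516-88819543.

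Paralogs of the members had other patterns. Trib1, a paralog of Trib3, rose with rmGM-CSF by 5.16 ± 0.131 on the log2 scale in STAT5fl/fl and 3.25 ± 0.103 in STAT5cKO, and by 5.18 ± 0.131 and 5.02 ± 0.103 with 4T1 CM. Its rise with rmGM-CSF differed between genotypes (interaction -1.91 ± 0.171, adjusted p = 1.5e-06). Sesn1, a paralog of Sesn2 that p53 and FOXO factors induce, fell with both treatments in STAT5fl/fl: it was 148 to 156.5 CPM with DMEM, 92.7 to 101 with rmGM-CSF and 23.7 to 28.8 with 4T1 CM in STAT5fl/fl.

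**Figure D4:**
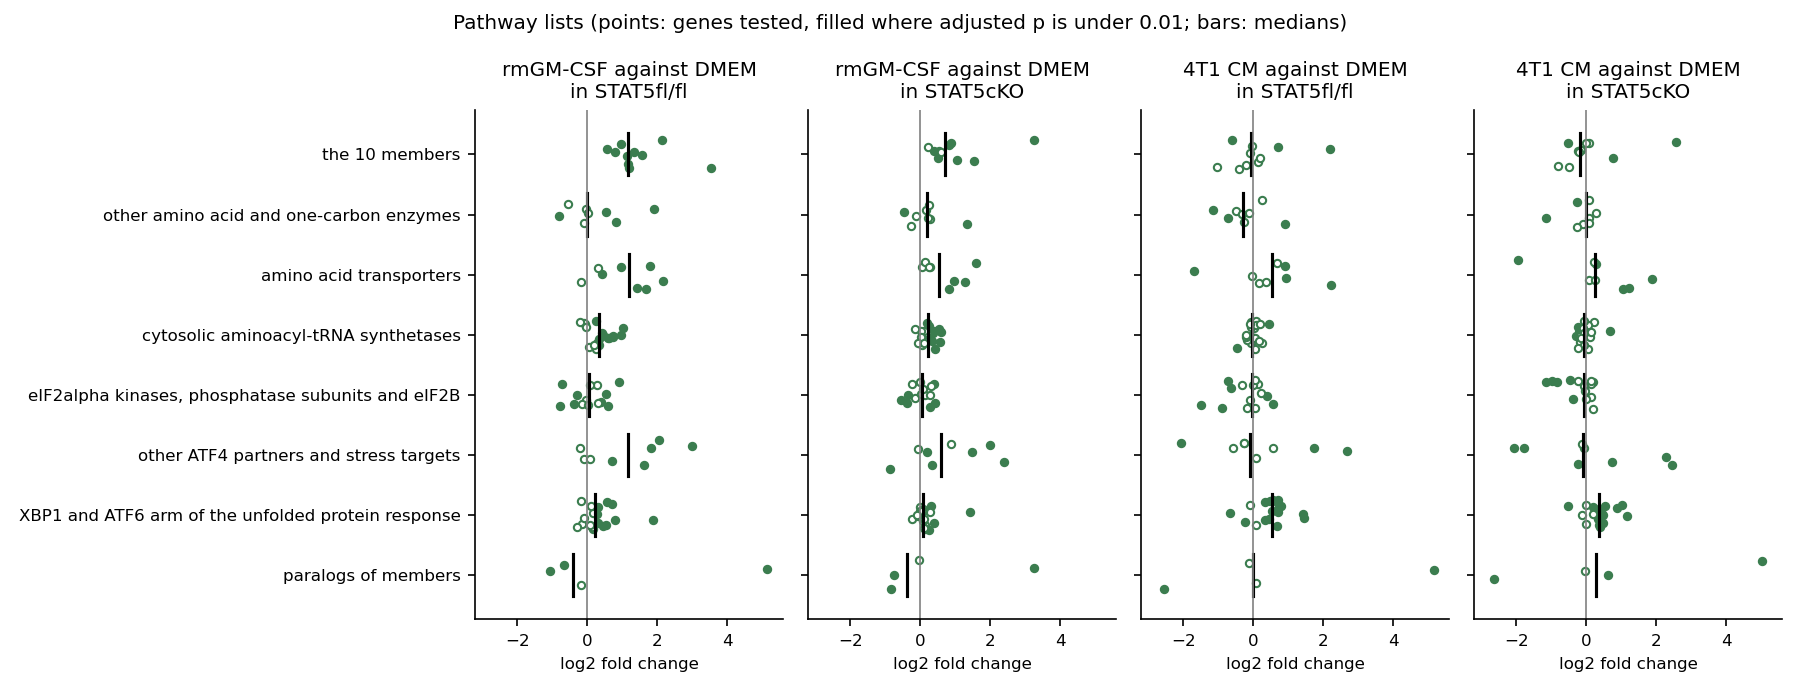
Log2 fold change against DMEM of the genes of each pathway list that passed the filter on low counts, for rmGM-CSF and 4T1 CM in both genotypes. Points are genes, filled where the adjusted p was under 0.01, and bars are list medians. The 10 members and the synthetases lie mostly to the right of 0 with rmGM-CSF, and the amino acid transporters do so with both treatments. The XBP1 and ATF6 list also lies mostly to the right with both treatments. Its medians were 0.55 in STAT5fl/fl and 0.37 in STAT5cKO with 4T1 CM, and 0.24 and 0.093 with rmGM-CSF.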

How the data were processed

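Total RNA from BMDMs of each mouse and medium was made into stranded TruSeq libraries. The deposited values are raw counts of fragments per gene. The authors trimmed reads with Trimmomatic 0.33, aligned them to GRCm38 with HISAT2 2.1.0 and counted them on the expected strand with featureCounts 1.6.2 at a mapping quality of at least 10 and Ensembl release 99. Fragments shared by overlapping genes were left out, and further libraries that the file header names were not analysed here. Here, counts were normalized by relative log expression, genes over 1 CPM in at least 2 libraries were kept, and all 6 groups were fitted together with edgeR 4.0.16 (R 4.3.3) by its quasi-likelihood test. P-values were adjusted by Benjamini-Hochberg over all 13005 genes and called under 0.01. SEs were taken from the fold change and the F statistic. The normalization factors ran from 0.9451 to 1.079 and the common biological coefficient of variation was 0.0787. The fits were tested on simulated counts.

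Groups came from the sample titles, whose number was read as the mouse, since each number occurs once per medium and in 1 genotype; the labels do not say so in words. Deviations from group means correlated between same-numbered libraries with a mean of 0.157 (0.0548 to 0.214) over 9 pairs in STAT5cKO. Between differently numbered libraries the mean was -0.0784 (-0.238 to 0.149) over 18 pairs, so the ranges overlapped. The within-mouse correlation in the fit with the random block was 0.068. In STAT5fl/fl the 2 libraries of a group mirror each other, so the check says nothing there. The alternatives were TMM normalization, filterByExpr, no filter, DESeq2 1.42.0, only the groups compared, a fixed replicate block for the mouse (10 of 10 members higher with rmGM-CSF in STAT5fl/fl, as without it), a random replicate block in limma 3.58.1, and leaving out each mouse. Under several of the other alternatives Ddit4 did not pass in that comparison.

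The members and lists were chosen with earlier results of these data known. Named genes were all members, up to 4 called genes per direction, list and comparison with the largest log2 fold change, and the 5 genes closest in log2 CPM to Atf4 and to Asns. The limit of 3 counts covers counting error only.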

Additional observations from a re-analysis of the deposited data

Results flagged for a closer look

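For a pair of results the effect of a treatment differed between genotypes by a test of the difference itself. The rise of Sesn2 with rmGM-CSF against DMEM was smaller in STAT5cKO than in STAT5fl/fl macrophages by a log2 difference of -0.75 (adjusted p = 0.00638 by edgeR's quasi-likelihood test): the gene went from 26.2 and 29.5 to 58.9 and 64.3 CPM in the 2 STAT5fl/fl mice and from 30.3, 30.8 and 32.55 to 36.85, 37.7 and 49.0 CPM in the 3 STAT5cKO mice. It did not pass without mouse 112, 113, 114 or 115 (adjusted p = 0.0846, 0.0795, 0.03 and 0.0347). The difference of Ddit3 between 4T1 CM and rmGM-CSF was smaller in STAT5cKO macrophages by a log2 difference of 0.72 (adjusted p = 0.00215): it was 57.6 and 61.4 CPM with rmGM-CSF and 25.6 and 27.5 with 4T1 CM in STAT5fl/fl, and 41.8 to 49.6 against 32.8 to 36.8 CPM in STAT5cKO. It did not pass without mouse 112, 113 or 115 (adjusted p = 0.0484, 0.0593 and 0.0154). No group held 4 or more libraries, so no test for a single outlying library was made.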

How the results depend on the processing

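Of 120 results (10 members in 12 comparisons), 51 were called; 15 of these did not pass under at least 1 alternative, 7 uncalled results passed under at least 1, and 13 uncalled results changed sign when a mouse was left out. TMM normalization changed 0 results. The fixed replicate block, the paired fit, gave no result for the genotypes compared within a medium. Of its other results 87 stayed the same and 3 became calls (for Chac1 with 4T1 CM in STAT5fl/fl at -1.04, in STAT5cKO at -0.794, and for Phgdh with 4T1 CM in STAT5cKO at -0.476). The number of members called in STAT5cKO against STAT5fl/fl with rmGM-CSF, 5, was 8 with no filter on low counts, 8 with only the groups compared, and 1 to 6 when 1 mouse was left out. With 4T1 CM the number, 2, was 1 with filterByExpr, with only the groups compared and with the random replicate block, and 1 to 2 when a mouse was left out. For rmGM-CSF against DMEM in STAT5cKO it was 5 to 8 when a mouse was left out (5 without mouse 114), for the genotype by rmGM-CSF interaction 0 to 1 (and 2 with no filter), and for the interaction of 4T1 CM against rmGM-CSF 0 to 1. The cause of these changes was not tested. The log2 changes that took both signs when a mouse was left out ran, with 4T1 CM against DMEM, from -0.121 to 0.0816 for Atf5 in STAT5fl/fl and from -0.0977 to 0.0877 for Trib3 and -0.00155 to 0.163 for Asns in STAT5cKO. With 4T1 CM against rmGM-CSF in STAT5fl/fl Psat1 ran from -0.25 to 0.102. Between genotypes they ran with DMEM from -0.0731 to 0.0241 for Ddit3, -0.138 to 0.0804 for Asns and -0.0796 to 0.148 for Psat1, with rmGM-CSF from -0.173 to 0.93 for Ddit4, and with 4T1 CM from -0.152 to 0.0152 for Atf4. In the genotype by 4T1 CM interaction they ran from -0.0208 to 0.512 for Chac1, -0.145 to 0.0401 for Asns, -0.0572 to 0.172 for Psat1 and -0.171 to 0.0179 for Phgdh. Counts were low for Ddit4, with 10 to 15 counts a library in STAT5fl/fl with DMEM, and Chac1, with 18 to 36 counts with 4T1 CM.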
